A study of Mus musculus with 8 samples.

Results

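Broad H3.3 peaks are the stretches of the genome where a peak of HA-tagged histone H3.3 was at least 4000 bp wide. They were chosen by a measured value, the width of each peak (its end minus its start), from 4 peak lists, and they numbered 1403 of 75040 peaks (1.87%). The lists come from native chromatin immunoprecipitation, in which chromatin is cut with micrococcal nuclease without fixation, pulled down here with an antibody against the HA tag and sequenced. The cells were mouse embryonic stem cells (mESCs), either of the wild type (WT) line W9.5 or of the Clone104 Hira-null line, a line from 1 clone that lacks the chaperone HIRA, and both genotypes carried H3.3-HA. Each was profiled undifferentiated, at day 0, and after hanging-drop differentiation towards cardiomyocytes, at day 15, when the culture holds a mixture of cells. Every condition had 1 ChIP library and 1 input library, so differences between conditions have no replicate check and are described without a test.

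The histone variant H3.3 enters chromatin throughout the cell cycle, whereas the canonical H3 proteins are deposited behind the replication fork. HIRA is the chaperone that delivers H3.3 to genes in use, including the sequence around their ends, while ATRX with DAXX delivers it to repeats such as telomeres and endogenous retroviruses.

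To see what sequence lay under the broad peaks, their letters were compared with each other. The 1403 peaks merged into 1233 regions, and regions were joined when they shared at least 20% of their 24-mers (runs of 24 bases), counted on either strand against the smaller region. A group of 578 regions on 21 chromosomes resulted, followed by groups of 13 regions on chromosome 4, 11 on chromosome 6 and 8 on chromosome 13. A stretch of 120 bases from each group is printed to show what its members share. The mm9 plus strand is given from 5′ to 3′, and capitals mark a 24-mer that 356 of the 578, 11 of the 13, 11 of the 11 and 8 of the 8 regions hold.
Group of 578 regions, chr1:55836677-55836796, distal intergenic: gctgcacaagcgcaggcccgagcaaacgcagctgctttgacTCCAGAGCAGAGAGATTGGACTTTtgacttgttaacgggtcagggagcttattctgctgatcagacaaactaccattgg
Group of 13 regions, chr4:145107753-145107872, intronic: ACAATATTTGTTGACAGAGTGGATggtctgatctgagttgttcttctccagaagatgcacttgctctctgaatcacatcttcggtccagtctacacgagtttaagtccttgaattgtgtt
Group of 11 regions, chr6:114448908-114449027, distal intergenic: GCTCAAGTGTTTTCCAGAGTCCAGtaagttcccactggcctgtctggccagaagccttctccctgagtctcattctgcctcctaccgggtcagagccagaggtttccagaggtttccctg
Group of 8 regions, chr13:65791801-65791920, distal intergenic: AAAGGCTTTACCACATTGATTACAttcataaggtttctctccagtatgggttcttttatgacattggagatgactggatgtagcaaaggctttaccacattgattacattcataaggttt
The stretches from chromosomes 1, 4 and 13 lay in broad peaks of Hira-null day 0, and that from chromosome 6 in a broad peak of Hira-null day 15.

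The lists held 22730 peaks in WT day 0, 17706 in Hira-null day 0, 27272 in WT day 15 and 7332 for Hira-null day 15, and the read depth behind them is unknown. The score of a peak is −10 times the log10 of its p-value, and no peak scored below 50. Intervals given for shares are exact 95% Clopper-Pearson intervals and cover counting error over peaks only. Chromosomes 8 and 11 make up 9.55% of the genome, yet they held 4539 of the 22730 WT day 0 peaks and 33.4% of all WT day 15 peaks, against 9.26% and 9.57% in the Hira-null lists. Among broad peaks the shares were 59.0% in WT day 0, 7.95% in Hira-null day 0, 71.2% in WT day 15 and 11.1% for Hira-null day 15. The part of these 2 chromosomes in the comparisons of genotypes was not tested beyond leaving them out, and values without them are given for numbers, widths, gene ends, distal shares and overlaps where they moved. Chromosome X held 0.691% of all WT day 0 peaks and 0.0880% of all WT day 15 peaks. In the Hira-null lists it held 3.47% at day 0 and 1.35% at day 15, and its part was not tested.

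There were 229 broad peaks in WT day 0 (1.01% of the list, interval 0.882 to 1.15%), 818 in Hira-null day 0 (4.62%, 4.32 to 4.94%), 257 in WT day 15 (0.942%, 0.831 to 1.06%) and 99 in Hira-null day 15 (1.35%, 1.1 to 1.64%). Hira-null cells thus had 3.57 times the WT number at day 0 and 0.385 times at day 15. Neither ratio stood by itself. Without the group of 578 regions the day 0 counts were 240 in Hira-null and 228 in WT, a ratio of 1.05. Without chromosomes 8 and 11 the day 15 order turned round, with 88 broad peaks in Hira-null and 74 in WT, a ratio of 1.19, while the day 0 ratio was 8.01 (753 against 94).

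Broad peaks covered 1.20 Mb in WT day 0, 4.08 Mb in Hira-null day 0, 1.45 Mb in WT day 15 and 0.699 Mb in Hira-null day 15. That was 4.20%, 12.3%, 4.62% and 9.45% of all sequence under peaks of the same list. Outside chromosomes 8 and 11 the covered sequence at day 15 was 0.625 Mb in Hira-null and 0.416 Mb in WT, so this order turned round too. Median width was 4797 bp in WT day 0, 4586 bp in Hira-null day 0, 5003 bp in WT day 15 and 6089 bp in Hira-null day 15. The Hira-null day 0 list was dense just above the limit, with 579 of 818 peaks under 5000 bp, whereas in Hira-null day 15 only 25 of 99 were that short and 27 were 8000 bp or wider. At the limit itself the narrowest members were 4004 bp in WT day 0, 4000 bp in Hira-null day 0, 4019 bp in WT day 15 and 4034 bp in Hira-null day 15. The widest peaks left out were 3996, 3998, 3984 and 3995 bp in the same order, so no gap in width separated members from other peaks.

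**Figure D1:**
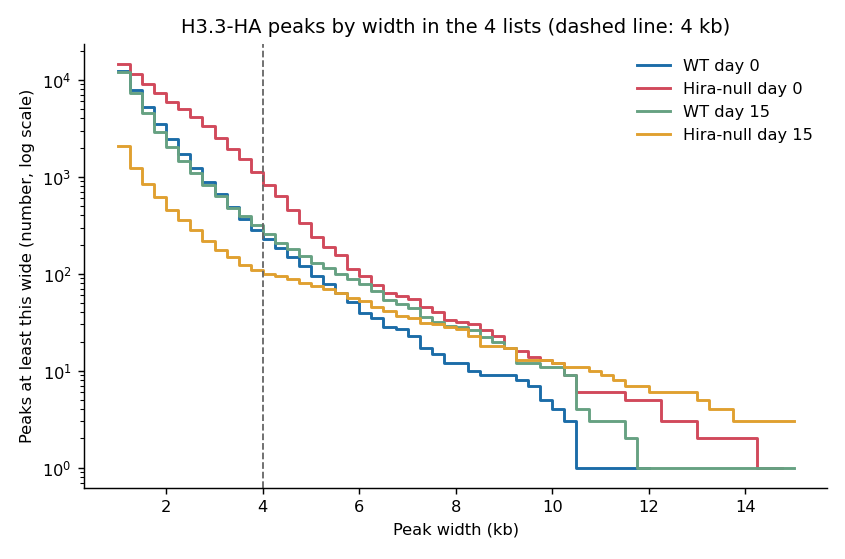
Number of H3.3-HA peaks (log scale) at least as wide as the value on the x axis (kb), for each of the 4 lists, 1 line per list with 1 library each, with the 4 kb limit dashed. The Hira-null day 0 line lies above the others at 4 kb (818 peaks) and the Hira-null day 15 line lies lowest there (99 peaks), while the lines other than WT day 0 come together at about 9 kb.

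Broad peaks ranked high by score within their lists. Their median score percentile was 98.0 in WT day 0, 95.9 in Hira-null day 0, 99.4 in WT day 15 and 98.5 for Hira-null day 15. The score sums evidence over the whole peak and so grows with width. Divided by width, the median percentile was 23.8 in WT day 0, 73.4 in Hira-null day 0, 90.6 in WT day 15 and 85.1 for Hira-null day 15. WT day 0 broad peaks were thus wide and, per kb, low in their own list, and peaks of 2 to 4 kb of that list were placed alike, with a median percentile per kb of 28.8. Some broad peaks were weak by any measure, and 8, 33, 3 and 2 broad peaks of the 4 lists scored under the median of all peaks. In Hira-null day 15, 14 peaks sat at 3100, the highest score in any list, and 9 of them were broad.

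Against protein-coding genes, broad peaks had a lower share in distal sequence and a higher share just past transcript ends than all peaks of their list. The differences were smallest in Hira-null day 0. A peak was placed by its midpoint. The order was promoter (3 kb upstream of a transcript start), downstream (3 kb past a transcript end), then exon, intron or distal intergenic. Downstream sequence can thus lie inside a gene with longer transcripts, as for the WT day 15 broad peak in Zfp207. The downstream share was 21.8% of broad peaks against 6.68% of all peaks in WT day 0, 33.5% against 9.71% in WT day 15 and 42.4% against 1104 of 7332 peaks in Hira-null day 15. In Hira-null day 0 it was 5.75% against 3.55%, or 15.8% without the group of 578 regions. Downstream sequence makes up 3.18% of the genome. The distal intergenic share was 26.6% of broad peaks in WT day 0 (interval 21.0 to 32.9%), 68.5% in Hira-null day 0 (65.2 to 71.6%), 7.00% in WT day 15 (4.20 to 10.8%) and 28.3% in Hira-null day 15 (19.7 to 38.2%). Over all peaks it was 43.6%, 71.2%, 23.3% and 47.7%, and over the genome 59.3%. Without chromosomes 8 and 11 it was 37.2% in WT day 0 and 13.5% in WT day 15, still the lowest of the 4 lists. Promoters held 23 of 229 broad peaks in WT day 0 and 27 of 257 (10.5%) in WT day 15, against 10.3% and 13.9% of all peaks.

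**Figure D2:**
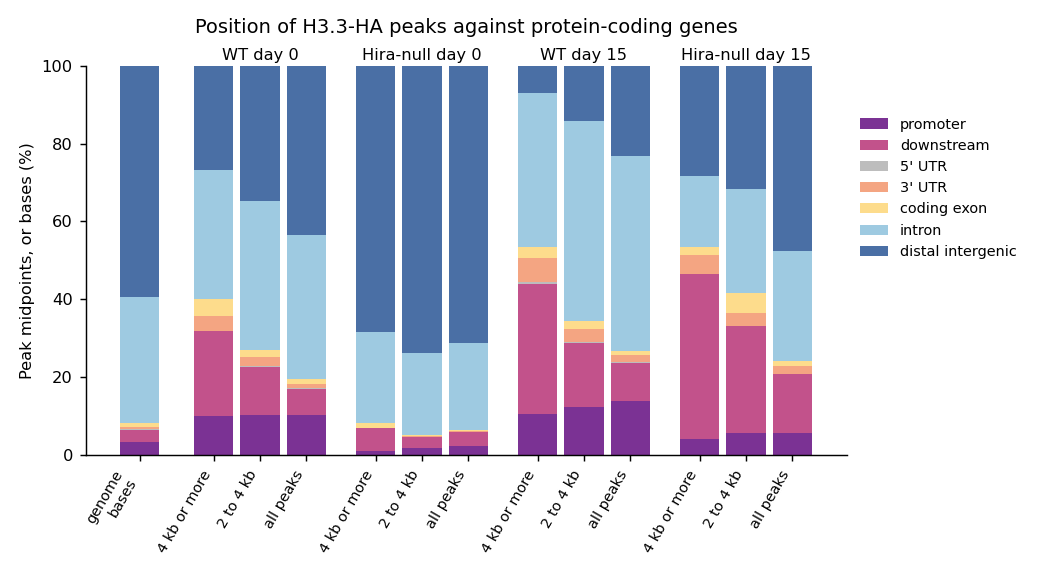
Share (%) of peak midpoints in 7 classes of position against protein-coding genes, for peaks of 4 kb or more, of 2 to 4 kb and all peaks of each list, beside the share of genome bases. The downstream class widens with peak width in WT day 0, WT day 15 and Hira-null day 15, and distal intergenic sequence holds most Hira-null day 0 peaks at each width.

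The end of a gene lay inside many of these peaks. It did so in 69 of 229 broad peaks in WT day 0 (30.1%, interval 24.3 to 36.5%), 65 of 818 in Hira-null day 0 (7.95%, 6.19 to 10%), 119 of 257 in WT day 15 (46.3%, 40.1 to 52.6%) and 56 of 99 in Hira-null day 15 (56.6%, 46.2 to 66.5%). The day 15 order turned round without chromosomes 8 and 11, with 56.8% in WT and 54.5% in Hira-null. Over all peaks of these lists the shares were 3.11%, 1.43%, 4.38% and 5.05%. A wide interval holds any point more often than a narrow one, so gene starts serve as the comparison of equal number. Starts lay in 8.73%, 2.08%, 6.23% and 4.04% of the broad peaks. Per Mb of broad peak there were 75.2 gene ends and 20.1 gene starts in WT day 0, 109 ends and 13.1 starts in WT day 15, and 104 ends and 7.15 starts in Hira-null day 15, against 8.42 of each per Mb of genome. The Hira-null day 0 broad peaks held 18.4 ends and 4.42 starts per Mb. Outside the group of 578 regions, 55 of its 240 broad peaks (22.9%) spanned a gene end.

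Peak lengths before and past the gene end were alike. Gene ends were chosen because a broad peak held them, so intervals placed without regard to ends would give this too. Ends of neighbouring genes under 1 peak each counted, with 158 ends in 119 broad peaks of WT day 15. The median length was 2.75 kb on the gene side and 2.95 kb past the end in WT day 0, 2.94 and 3.07 kb in Hira-null day 0, 2.71 and 3.11 kb in WT day 15, and 3.12 and 3.49 kb in Hira-null day 15. At 143 of 158 gene ends in WT day 15 the peak ran at least 1 kb past the end, and it reached up to 11.8 kb past. Of the 89 genes with a spanned end in WT day 0, 55 (61.8%) were also spanned in WT day 15, where they were 35.0% of 157. WT day 15 and Hira-null day 15 shared 40 genes, which were 25.5% of the WT genes and 54.8% of the 73 Hira-null genes. WT day 0 and Hira-null day 0 shared 21, or 23.6% and 28.4%. In all 4 lists the spanned ends were those of 9 annotated genes, namely Npm1, Hnrnpu, Fam36a, Eif4a2, Rfc4, Hsp90ab1, Slc35b2, Wsb1 and 9030025P20Rik, some of which are neighbours under 1 peak. The region at Wsb1 belongs to the group of 578 regions.

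**Figure D3:**
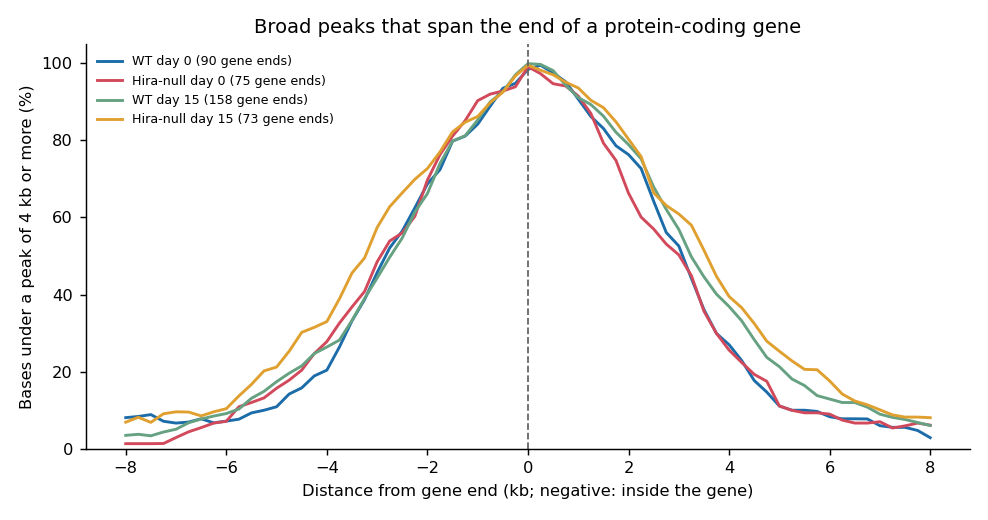
Share (%) of bases under a peak of 4 kb or more at each distance (kb) from the gene end, over the gene ends that such a peak spans, 1 line per list with its number of gene ends. All 4 lines top out at the gene end, as the choice of gene ends requires. They stretch about as far past it as into the gene, which intervals placed without regard to ends would also do.

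Broad peaks of 1 list were often touched by peaks of another, at an overlap of 1 bp or more. In WT day 0, 74 of 229 (32.3%, interval 26.3 to 38.8%) were touched by a Hira-null day 0 peak, against 27.3% of all peaks, and in bases the broad peaks were covered to 22.5% and the narrower ones to 22.9%. WT day 15 peaks touched 72.9% of them against 25.7% of all peaks, and Hira-null day 15 peaks touched 31.9% against 6.60%. Bases covered, which do not favour wide peaks, were 52.7% against 22.0% for WT day 15 and 24% against 4.97% for Hira-null day 15. The broad peaks of undifferentiated WT cells thus overlapped both day 15 lists more than narrower peaks did, and the Hira-null list of their own day by no more bases. Without chromosomes 8 and 11, the Hira-null day 0 list touched 52.1% of them.

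In WT day 15, 117 of 257 broad peaks (45.5%, 39.3 to 51.8%) were touched by a Hira-null day 15 peak, against 8.07% of all peaks, with 30.4% of bases covered against 6.44% of narrower peaks. This share rested on chromosomes 8 and 11, and without them it was 87.8%. WT day 0 peaks touched 81.7% of the WT day 15 broad peaks against 22.0% of all peaks, and Hira-null day 0 peaks touched 14.4% against 3.05%. Of the 99 Hira-null day 15 broad peaks, 81 (81.8%, 72.8 to 88.9%) were touched by WT day 15 against 30.8% of all peaks, 71.7% by WT day 0 against 20.5% and 43.4% by Hira-null day 0 against 23.5%. WT day 15 peaks covered 61.4% of their bases. The Hira-null day 0 broad peaks stood apart, since WT day 0 touched 538 of 818 (65.8%, 62.4 to 69.0%) against 32.8% of all peaks, whereas WT day 15 touched 9.66% against 4.38% and Hira-null day 15 touched 13.3% against 9.25%. Although touched, they were covered by WT day 0 to 25.1% of their bases, and a WT day 0 peak covered at least 50% of the peak in 13.6% of them. When each list was held to its 7332 best peaks by score, WT day 0 touched 32.6% of the Hira-null day 0 broad peaks and Hira-null day 0 touched 18.3% of those of WT day 0.

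Of the 1233 merged regions, 1121 were broad in 1 list, 81 in 2, 22 in 3 and 9 in all 4. In 340 regions no other list had a peak of any width. The 31 regions broad in 3 or 4 lists are where wide H3.3 peaks recurred across genotype and day. Of them, 28 (90.3%) contained a gene end, but they are merged regions of 6038 to 30988 bp. A wide region holds a gene end more often, and the share over the other merged regions was not computed. Genes at these regions, picked after their values were seen, include Npm1 (a nucleolar chaperone), Hnrnpu and Hnrnpa2b1 (RNA-binding proteins), Srsf3, Tra2b and Sfpq (splicing), Eif4g2, Eif4a1, Eif4a2 and Eif5 (translation initiation), Rpl3 and Rpl27a (ribosomal proteins), Hsp90aa1 and Hsp90ab1 (chaperones), Ldha (lactate dehydrogenase) and Ppia (cyclophilin A). The Eif5 region was 1 of the 3 that held no gene end. Others of the 31 lay at Wsb1, Taf1d, Smc4, Kpna2, Dhx9, BC046404 and Gm13251, near Apba2 and in a cluster on chromosome 17.

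At Npm1 (chr11:33047906-33060047) the peak was 12142 bp wide in WT day 0, 10113 bp in Hira-null day 0, 11362 bp in WT day 15 and 10756 bp in Hira-null day 15. It was a single peak in every list, and the widest of WT day 0. Its score was 314, 611, 616 and 3100 in the same order, but scores are not comparable between lists of unknown depth. The value of 3100 was shared by 14 peaks of Hira-null day 15. Within its list the peak stood at the 97.6th percentile in WT day 0, the 99.2nd in WT day 15 and the 99.9th in Hira-null day 15. At Hnrnpu (chr1:180249281-180264363) the peaks covered 10.5, 6.80, 14.0 and 15.1 kb in that order, and the Hira-null day 15 list alone joined them into 1 peak of 15083 bp. At Hnrnpa2b1 (chr6:51403204-51416864) the covered lengths were 6.22, 2.09, 12.2 and 13.7 kb, so that both day 15 lists covered more than both day 0 lists. Wsb1, a substrate adaptor of a ubiquitin ligase, ran the other way (chr11:79045738-79056972). It had 10.1 kb in Hira-null day 0 against 6.28 kb in WT day 0, 6.44 kb in WT day 15 and 5.87 kb in Hira-null day 15. The Wsb1 region belongs to the group of 578 regions that share sequence, each of which held a broad Hira-null day 0 peak. The region at Eif4g2 (chr7:118210926-118222743) carried 7.86, 7.49, 9.57 and 11.8 kb, and that at Srsf3 (chr17:29175385-29186417) 8.04, 8.34, 8.19 and 11 kb. Hira-null day 0 had no peak at all in 9 of the 31 regions, among them Ppia, Hnrnph1, Smc4 and Rpl27a. In these 9 the other lists were broad by the choice of regions, so their peaks there are not a result. The choice did not fix which list would lack a peak, and no other list lacked one in any of the 31.

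Among the widest of the 31, the region near Apba2 and a cluster on chromosome 17 were made largely of sequence that recurs in the genome. The widest of all lay in distal intergenic sequence 5.29 kb from Apba2, at chr7:71610314-71641301, where Hira-null day 15 had 1 peak of 30988 bp. WT day 0 covered 28.0 kb of it in 9 peaks, WT day 15 covered 25.1 kb in 10 peaks and Hira-null day 0 covered 2.92 kb in 1 peak. Of its 24-mers, 92.6% occur at least 2 times in the genome and 73.9% at least 10 times. Another 6 of the 31 regions stood side by side on chromosome 17, from chr17:15098532 to chr17:15191801, across Phf10, Gm3417, Gm3448, Gm3435 and Tcte3. There the lists had 8, 4, 9 and 8 broad peaks in the order used above, with 97.4 to 99.4% of 24-mers in at least 2 copies. How reads that match several places were treated is not given in the sources used here, and its part in these peaks was not tested.

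**Figure D4:**
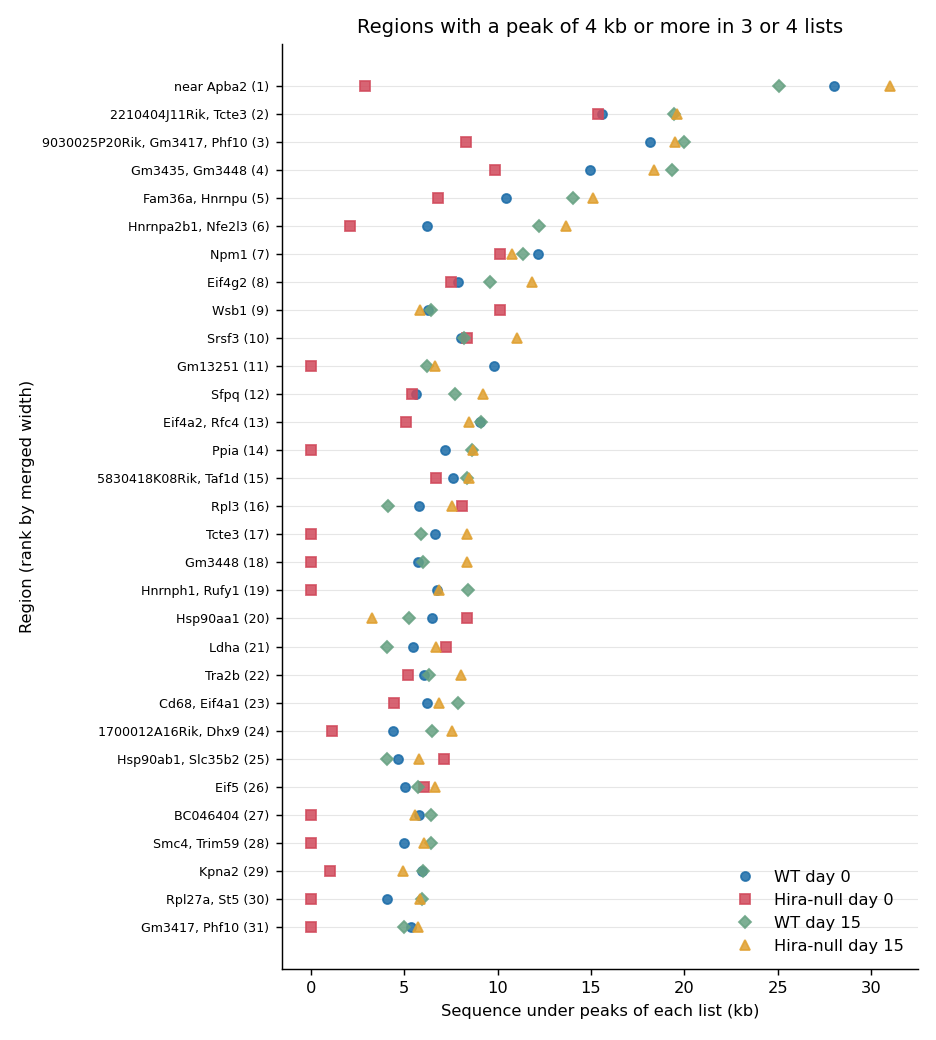
Length (kb) under peaks of each list in the 31 regions with a peak of 4 kb or more in 3 or 4 lists, 1 symbol per list, ordered by merged width and named by the genes touched or, for the top region, the nearest gene. Hira-null day 0 (squares) lies at 0 in 9 regions and leftmost near Apba2 (2.92 kb against 25.1 to 31.0 kb), but rightmost at Wsb1, Rpl3, Hsp90aa1, Ldha and Hsp90ab1.

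In WT day 15 the widest peak, of 19037 bp (chr11:86498709-86517745), ran across the ends of Cltc (clathrin heavy chain) and Ptrh2. WT day 0 covered 10.8 kb of it in 5 peaks, Hira-null day 15 covered 7.08 kb in 4 peaks and Hira-null day 0 had none. Peaks of 11552 bp at Hnrnpa2b1, 11362 bp at Npm1, 10547 bp in Zfp207 and 10499 bp at Cct4 (a chaperonin subunit) came next. Its highest-scoring broad peaks were at Hnrnph1 (score 2853), Ppia (2076), Ccng1 (cyclin G1, 1787), near Apba2 (1770) and at Eif4a2 (1740). The widest WT day 15 peaks with no Hira-null day 15 peak were those in Zfp207, at Rps27a (9011 bp), in Xpo1 (a nuclear export receptor, 8846 bp), at Mat2a (8397 bp) and in Ap1g1 (8201 bp). Of these, 4 lay on chromosome 11 or 8 and only Mat2a on another chromosome.

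In WT day 0 the widest peaks after Npm1 were 10370 bp at Sf3b3 (a spliceosome subunit), 10321 bp at Gm3448, 10067 bp in 2610305D13Rik and 9796 bp at Gm13251. The Sf3b3 peak (chr8:113329306-113339675) had 8823 bp under WT day 15, 783 bp under Hira-null day 15 and nothing under Hira-null day 0. The 5 highest scores, 1600 to 2033, lay near Apba2, at Gm13247, Gm13251 and Gm13151 on chromosome 4 and at 2410141K09Rik on chromosome 13, in peaks whose 24-mers were 52.5 to 93.6% repeated. The widest without a Hira-null day 0 peak were at Sf3b3, Gm13251, near Apba2 (9137 bp), at Xbp1 (8136 bp) and at Hnrnpab (8134 bp). At Xbp1 (chr11:5425694-5433829) the WT day 0 score was 74.0, at the 42.9th percentile of the list. The WT day 15 peaks there scored up to 1307, at the 99.9th percentile of their own list.

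In Hira-null day 0 the widest peak was 14891 bp (chr7:140233797-140248687), intronic, touching Ctbp2 (a corepressor) and Fgfr2 (a growth factor receptor). WT day 0 covered 4.36 kb of it in 5 peaks and neither day 15 list had a peak there. It held little repeated sequence, with 1.81% of 24-mers in 2 or more copies. The next were 14181 bp near Gm13235, 12754 bp at Gm13139 and 12080 bp at Gm13151, all on chromosome 4, and 12057 bp near B230307C23Rik on chromosome 16. Among its top scores were those near Yes1 (2365), at Zfp936 (1926), in Prkdc (1866) and near Cyp2b23 (1797), and WT day 0 had narrower peaks at each. The widest without a WT day 0 peak were near Prl2c2 (7616 bp, score 57.6), in Mid1 (6870 bp), in Gm13157 (6577 bp), 893 kb from the nearest gene 1190002N15Rik (6472 bp) and in Pcmtd1 (6447 bp). Mid1 lies on chromosome X, where the WT lists held few peaks.

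In Hira-null day 15 the widest after the region near Apba2 were 16699 bp near Hrh1, 15083 bp at Hnrnpu, 13661 bp at Hnrnpa2b1 and 13185 bp near 4930467E23Rik. Of its 9 broad peaks tied at the top score of 3100, those at Hnrnpu, Eif4g2, Srsf3, Npm1 and Eif4a2 lay in regions also broad in other lists, and the other 4, in introns or distal intergenic sequence, lay in none of the 31 regions. The widest without a WT day 15 peak were near 4930467E23Rik, at Mid1 on chromosome X (10714 bp), near Hrh1 (8873 bp), at Igf2 (8240 bp) and near Atg7 (7471 bp). Chromosome X held 0.0880% of all WT day 15 peaks. At Mid1, 83.1% of the 24-mers were repeated, near 4930467E23Rik 90.9%, near Hrh1 97.3% and near Atg7 99.5%, but at Igf2 0.604%. In the 16699 bp peak near Hrh1 93.2% were repeated. That peak and the one near 4930467E23Rik scored 75.3 and 91.0, at the 36.1st and 49.4th percentile of the list.

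The 578 regions that share sequence were nearly all a matter of Hira-null day 0. Each held a broad peak of that list, 578 of its 818 (70.7%), and the other 3 lists had 1 broad peak each in them, at Wsb1. The most common 24-mer stood in 521 of the regions (90.1%). Across all 818 broad peaks, 49.9% of 24-mers occurred 100 or more times in the genome, against 4.01% in WT day 0, 3.17% in WT day 15, 5.31% in Hira-null day 15 and 9.78% in 1 kb windows sampled along the genome. Peaks of 2 to 4 kb in Hira-null day 0 were alike, at 54.0%, and those under 2 kb stood at 20.4%. CpG was also frequent, with 18.9 per kb against 8.36 to 11.5 in broad peaks of the other lists. Outside the group the 240 broad peaks had 6.36% of such 24-mers and 9.34 CpG per kb.

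Inside the group, 76.3% of the Hira-null day 0 broad peaks were distal intergenic and 1.73% spanned a gene end, against 49.6% and 22.9% outside it. Their median width was 4504 bp, against 4918 bp outside. WT day 0 touched 330 of the 578 (57.1%) but covered 15.0% of the bases. WT day 15 touched 5 (0.865%) and Hira-null day 15 touched 13 (2.25%). Outside the group WT day 0 touched 86.7%, WT day 15 30.8% and Hira-null day 15 40%. Regions were chosen by width, and each of the 578 held a broad Hira-null day 0 peak. Wide peaks in that list beside narrower or no peaks in the others therefore follow largely from the choice. The shares touched by the other lists are given as values only.

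The same sequence was also followed elsewhere in the genome, beyond the broad peaks. There were 2527 24-mers in at least 200 of the regions, and 1243 places in the genome carried at least 1000 of them, with a median length of 3458 bp. Of these, 919 lay outside every broad peak, and 915 of the 919 (99.6%) had a narrower Hira-null day 0 peak, against 393 (42.8%) in WT day 0, 0 in WT day 15 and 14 (1.52%) for Hira-null day 15. A count of 0 is of listed peaks and does not show that H3.3 was absent. The bases of these places were covered to 85.2%, 12.0%, 0% and 0.262%. The 24-mer in capitals above occurs 1523 times, of which 1513 lay under a Hira-null day 0 peak, 361 under WT day 0, 0 under WT day 15 and 2 under Hira-null day 15. Because the 24-mers were taken from regions that are nearly all Hira-null day 0, the height of that list is partly given by the choice. The 919 places also leave out any in a broad peak of any list. The values of the other 3 lists are thus not free of the choice either. The name of the repeat was not looked up, as no repeat annotation was used, and the part of reads that match many copies was not tested.

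**Figure D5:**
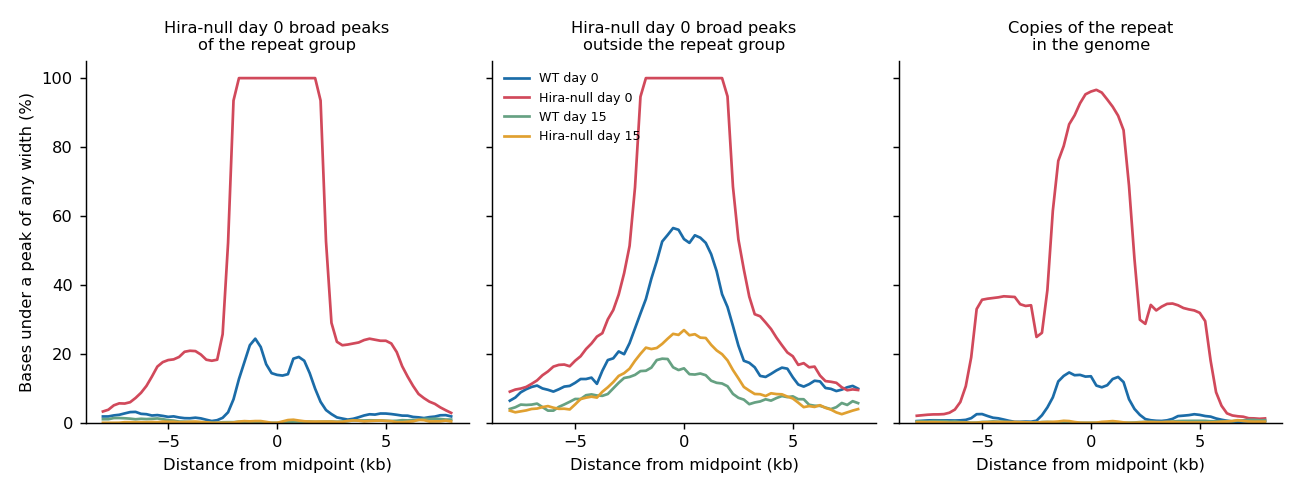
Share (%) of bases under a peak of any width of each list, by distance (kb) from the midpoint of Hira-null day 0 broad peaks in the group of 578 regions (left), of its other 240 broad peaks (middle) and of the 1243 genome copies of the repeat (right). WT day 0 stays under 30% and both day 15 lists near 0 at the repeat, while outside the group all 4 lists have a hump at the midpoint.

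Clusters of broad peaks along chromosomes also differed between the lists. The 1 Mb windows starting at 145 and 146 Mb of chromosome 4 held 11 and 14 broad peaks in WT day 0 and 11 and 15 for Hira-null day 0, but 1 and 0 in WT day 15 and 2 and 0 for Hira-null day 15. Their genes include Zfp600 and many gene models with names in Gm, and the group of 13 regions lies there, from chr4:145104565 to chr4:147016882. The window at 66 Mb of chromosome 13 held 14 broad peaks in Hira-null day 0, 4 in WT day 0 and 0 in both day 15 lists. The group of 8 regions lies around it, and its 24-mer in capitals, found 656 times in the genome, was under a peak of any width 204 times in WT day 0, 263 in Hira-null day 0, 125 in WT day 15 and 493 for Hira-null day 15. Of these occurrences, 96 of the 263 in Hira-null day 0 and 10 of the 204 in WT day 0 lay in broad peaks, and 0 did in either day 15 list.

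On chromosome 6 the window at 114 Mb held 11 broad peaks in Hira-null day 15 and 0 in the other lists, within 133 kb from chr6:114448699 to chr6:114581785 between Hrh1 and Atg7. Its 24-mer in capitals occurs 54 times, on this chromosome only, with 47 under Hira-null day 15 peaks, 14 under WT day 15 peaks and 0 in either day 0 list. Of the 3 fullest windows of each WT list, 1 in WT day 0 and 2 in WT day 15 lay on chromosome 11. The window at 86 Mb, with Cltc, Vmp1 and Med13, held 12 broad peaks in WT day 15 and 1 in each other list, and that at 77 Mb, with Taok1 and Myo18a, held 8 in WT day 15, 3 in WT day 0 and 0 in the Hira-null lists. The window at 97 Mb, with Kpnb1 and Rpl23, held 11 in WT day 0, 6 in WT day 15 and 0 in both Hira-null lists. The window at 15 Mb of chromosome 17 held 8, 6, 9 and 8, and that at 92 Mb of chromosome 3, with Sprr2a2 and Sprr2a3, held 4 in both day 15 lists, 1 in Hira-null day 0 and 0 in WT day 0.

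A gene was counted as having a broad peak when such a peak touched its body, the 10 kb upstream or the 200 bp past its end. This held for 213 of 22367 protein-coding genes in WT day 0 (0.952%), 329 in Hira-null day 0 (1.47%), 300 in WT day 15 (1.34%) and 104 for Hira-null day 15 (0.465%). Of 21 pluripotency genes, 3 had a broad peak in WT day 0 and 2 for Hira-null day 0, and 0 in either day 15 list. At Nanog, a core pluripotency factor, the widest peak was 5647 bp in WT day 0, 5066 bp in Hira-null day 0 and 676 bp in WT day 15, with no peak in Hira-null day 15. Tet1, an enzyme of DNA demethylation, had one of 6778 bp and Fgf4, a growth factor of the early embryo, one of 4721 bp in WT day 0. At Tet1 the Hira-null day 0 and WT day 15 peaks reached 1050 and 860 bp, and Fgf4 had a peak in no other list. Zfp42, which encodes the stem cell marker REX1, had 5327 bp in Hira-null day 0, 3423 bp in WT day 0 and no peak at day 15. The day 0 shares were 14.3% in WT and 9.52% in Hira-null, on 3 and 2 genes. For a list of 21 genes, a count of 0 at day 15 is close to the shares over all genes. It is therefore not read as a trait of these genes.

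Lists of heart, muscle and matrix genes had 0 or 1 gene with a broad peak in any condition, counts too small to set against the shares over all genes given above. Of 27 cardiac transcription factors, Tead1 alone had a broad peak, of 4208 bp in WT day 0, against 2666 bp in WT day 15 and none in the Hira-null lists. Of 25 sarcomere and contraction genes, only Tpm1 (tropomyosin) had one, of 9187 bp in Hira-null day 15 against 2099 bp in WT day 15 and no peak at day 0. Acta2, smooth muscle actin, was the only 1 of 10 smooth muscle genes, with 6785 bp in Hira-null day 15 against 929 bp in WT day 15. Col4a1, a basement membrane collagen on chromosome 8, was the only 1 of 19 fibroblast and matrix genes, with 4689 bp in WT day 15 and no peak in the other lists.

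Of 50 imprinted genes, which are expressed from the copy of 1 parent, 7 had a broad peak in Hira-null day 15 (14.0%), 2 in WT day 0, 1 in Hira-null day 0 and 2 in WT day 15. In the same order, the shares over all genes were 0.465%, 0.952%, 1.47% and 1.34%. The 7 were Igf2 and Igf2r (a growth factor and its receptor), Mest, Copg2, Peg3, Zim1 and Kcnq1. Mest and Copg2 share 1 peak of 5720 bp on chromosome 6 and Peg3 and Zim1 share 1 of 10142 bp on chromosome 7, so the genes are not independent. At Igf2 the peak of 8240 bp (chr7:149833173-149841412, which spans the gene end) was matched by no peak in any other list. At Peg3 the widest WT day 15 peak was 1317 bp and neither day 0 list had a peak. Igf2r had 4339 bp in Hira-null day 15, 1465 bp in WT day 15, 2132 bp in Hira-null day 0 and 688 bp in WT day 0. The broad peaks at imprinted genes in WT lay on chromosome 11, at Ddc and Commd1 in day 0 and at Ddc and Grb10 in day 15, and that of Hira-null day 0 was at Calcr.

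Each condition had broad peaks at the ends of some genes in constant use, but no gene named here had one in all 4 lists. Among 138 ribosomal protein genes, 5 had one in WT day 0 (Rpl23, Rpl26, Rpl27a, Rpl3 and Rpl38), 4 in Hira-null day 0 (Rpl10a, Rpl21, Rpl3 and Rpl6), 5 in WT day 15 (Rpl23, Rpl27a, Rpl5, Rpl9 and Rps27a) and 5 in Hira-null day 15 (Rpl27a, Rpl3, Rpl5, Rpl6 and Rps24). The shares were 3.62%, 2.90%, 3.62% and 3.62%, against 0.952%, 1.47%, 1.34% and 0.465% over all genes. All of these peaks spanned the gene end, which is easily met because many of these genes are about as short as the peaks are wide. At Rpl21 the peak was 9214 bp in Hira-null day 0, 3913 bp in WT day 0, 2135 bp in WT day 15 and 1220 bp in Hira-null day 15. Of 15 housekeeping genes, Ppia had broad peaks of 7160 bp in WT day 0, 8627 bp in WT day 15 and 6149 bp in Hira-null day 15. Eef1a1, an elongation factor, had 6822 bp in Hira-null day 15 and 2157 to 3014 bp in the other lists. Eef1a1, Ppia and the ribosomal protein genes have processed pseudogenes of near-identical sequence, so peaks at their exons are uncertain.

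Gene families picked after the regions above had been seen are given as values only. Broad peaks were found at 4, 1, 5 and 4 of 18 hnRNP genes, at 1, 1, 3 and 1 of 11 SR splicing factors, at 1, 0, 3 and 0 of 8 SF3 splicing factors, and at 5, 4, 5 and 3 of 58 initiation factors in WT day 0, Hira-null day 0, WT day 15 and Hira-null day 15. They were found at 3, 1, 3 and 1 of 54 DEAD and DEAH box helicases, at 3, 2, 4 and 1 of 17 Hsp90 and Hsp70 chaperones, and at 4, 0, 6 and 1 of 34 importins, exportins and nucleoporins. Kpnb1, an importin on chromosome 11, had 4 broad peaks in WT day 0, 2 in WT day 15 with the widest at 10426 bp, and no peak in the Hira-null lists.

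Of 374 genes named Zfp, which encode zinc finger proteins, 5 had a broad peak in WT day 0, 12 in Hira-null day 0, 3 in WT day 15 and 0 for Hira-null day 15. Zfp936 had 8621 bp in Hira-null day 0 and 5100 bp in WT day 0, Zfp600 had 10200 and 9645 bp, and Zfp808 had 5637 and 1475 bp in the same order. At Zfp445 the peak was 6436 bp in Hira-null day 0 against 1325 bp in WT day 0, with no peak at day 15. Of 10 genes for H3.3 and its chaperones, H3f3a, which encodes H3.3, had 4311 bp in Hira-null day 15, 2559 bp in WT day 15, 2534 bp in WT day 0 and no peak in Hira-null day 0. Hira had a broad peak of 4638 bp in Hira-null day 0 in an intron (chr16:18908618-18913255), with no peak in WT day 0 and peaks of at most 1295 bp in WT day 15 and 1562 bp in Hira-null day 15. Of 328 vomeronasal receptors, Vmn1r193 and Vmn2r-ps100 had one in Hira-null day 0, as did Pcdha11 of 36 protocadherins. None of 1113 olfactory receptors, 40 Hox genes, 67 replication-dependent histones or 11 guanylate-binding proteins had a broad peak in any list. Over all genes the shares were 0.952%, 1.47%, 1.34% and 0.465% in WT day 0, Hira-null day 0, WT day 15 and Hira-null day 15. For lists of 40, 67 or 11 genes a count of 0 is close to these shares. The histone genes had narrower peaks at 53 of 67 in WT day 0 and 59 in WT day 15, against 3 and 1 in Hira-null. Of all 22367 protein-coding genes, 7520 had a peak of any width in WT day 0 and 8308 in WT day 15. In the Hira-null lists 4223 had one at day 0 and 2977 at day 15.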

How the data were processed

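Per the labels and the study's methods, the authors aligned paired-end reads of native H3.3-HA ChIP to mm9 with Bowtie, took out duplicates with Samtools, and called peaks with MACS 1.4.2, 1 list per condition on 1 library. The deposited score is −10·log10 of the p-value. The 4 input libraries were not used here. No columns held comparisons by the authors.

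Peaks of at least 4000 bp were kept. Genes were 22367 protein-coding genes of GENCODE M1 on NCBIM37. Overlap needed 1 bp and was checked against bedtools 2.31.1 (difference 0 in 4 of 4 pairs) and on simulated intervals. Python 3.11.15, numpy 2.4.6, pandas 2.3.3 and scipy 1.17.1 were used. With 1 library per condition no test was run. The genome was not repeat-masked, so the planned masked share was replaced by the number of genome copies of each 24-mer. Shares of 24-mers by number of genome copies used a sample of 1 in 16 24-mers, while the groups used every 24-mer of each region.

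Members and gene lists were chosen with earlier results of these data known. Named regions were, per list, the 5 widest, the 5 highest in score, the 5 widest without the other genotype's peak of the same day and the 3 fullest 1 Mb windows, the 10 widest regions broad in 3 or 4 lists, and list genes with a broad peak. Other regions and genes named from the 31, the genes with ends spanned in all 4 lists and 7 gene families were picked after their values were seen. Alternatives were widths of 3000 and 5000 bp, merging within 1 kb, scores of at least 100, lists of 7332 peaks, overlap of 50% or at the midpoint, flanks of 1 kb, and leaving out chromosomes 8 and 11. Leaving out the group of 578 regions, other link shares and the alternatives for gene ends, covered sequence and median width were added after the data were seen. Values of some single named regions and list genes are not reported here.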

Additional observations from a re-analysis of the deposited data

Results flagged for a closer look

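Between Hira-null and WT, 4 measures of the broad peaks differed in opposite directions at the 2 days over all chromosomes. No difference between days was tested, since each condition has 1 library and the Hira-null line is 1 clone, and none of the 4 kept opposite directions both without chromosomes 8 and 11 and without the group of 578 regions that share sequence. The number of broad peaks in Hira-null over WT was 3.57 at day 0 and 0.385 at day 15. Without chromosomes 8 and 11 it was 8.01 and 1.19, in the same direction at both days, and without the group it was 1.05 and 0.383. The sequence under broad peaks in Mb was 3.41 times the WT value at day 0 and 0.482 times at day 15, and 1.14 and 0.480 times without the group. When these chromosomes were left out it was 7.44 times at day 0 and, with 0.625 Mb against 0.416 Mb, also above the WT value at day 15. Their median width was 0.956 times the WT value at day 0 and 1.22 times at day 15. This ratio was 0.944 and 1.24 without the chromosomes, and without the group it was 1.03 and 1.22, above 1 at both days. The share that spanned a gene end was 0.264 times the WT share at day 0 and 1.22 times at day 15. Without the chromosomes it was 0.226 and 0.961 times, below 1 at both days, and without the group 0.768 and 1.22 times.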

How the results depend on the processing

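Among 136 comparisons of a value with its alternative, 67 stayed within the counting interval or, for numbers, within 1.5 times. Values below run through WT day 0, Hira-null day 0, WT day 15 and Hira-null day 15 unless a list is named, and those left out stayed within these limits. The cause was not tested beyond what each alternative removes. No paired analysis was possible because no test was run and each condition has 1 library. Read depth is unknown and limits how many peaks each list holds.

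Without chromosomes 8 and 11 the Hira-null over WT number of broad peaks at day 15 reversed to 1.19, and the day 0 ratio was 8.01. Without these chromosomes WT day 0 had 94 and WT day 15 had 74 broad peaks, the other genotype overlapped 52.1% and 87.8% of them, 37.2% and 13.5% were distal intergenic and the median score percentile was 99.3 and 99.8. A gene end was then spanned by 56.8% of WT day 15 peaks, above the Hira-null share of 54.5%, which turned that order round. Without the group of 578 regions the day 0 ratio was 1.05, and Hira-null day 0 had 240 broad peaks, of which WT day 0 overlapped 86.7%, 49.6% were distal intergenic and 22.9% spanned a gene end, with a median score percentile of 97.2.

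At a width of at least 3000 bp the lists held 658, 2510, 636 and 177 peaks. The overlap with the other genotype was then 25.4%, 54.3% and 31.6% in the first 3 lists, the share that spanned a gene end was 22.6%, 3.31% and 31.8%, the median score percentile was 95.6, 90.3, 98.7 and 97.8, and the distal share in Hira-null day 0 was 74.1%. At a width of at least 5000 bp the first 3 lists held 94, 239 and 129 peaks, with 18.1%, 55.6% and 3.10% distal, median percentiles of 98.9, 98.3 and 99.6, and gene ends spanned by 44.7%, 17.2% and 55.0%. The overlap was 40.4% in WT day 0 and 79.5% for Hira-null day 0. Merging peaks less than 1 kb apart gave 618, 1828, 982 and 220 broad peaks and a day 15 ratio of 0.224.

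When the other genotype had to cover at least 50% of the broad peak, the overlap was 20.1%, 13.6%, 24.9% and 63.6%. At the midpoint it was 42.2% in Hira-null day 0 and 35.8% in WT day 15. With a score of at least 100 in the other list it was 21.4%, 34.2% and 35.0% in the first 3 lists, and with lists of equal length 18.3% in WT day 0, 32.6% in Hira-null day 0 and 71.7% in Hira-null day 15. Score divided by width gave median percentiles of 23.8, 73.4, 90.6 and 85.1. With flanks of 1 kb the distal share was 18.3% in WT day 15 and 42.4% for Hira-null day 15. The largest group that shares 24-mers had 580 regions at a share of 10% and 388 at 50%.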
